A study of Mus musculus with 3 samples.

Results

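The thyroid lineage genes *Nkx2-1*, *Pax8*, *Hhex*, *Foxe1*, *Tg*, *Iyd*, *Tshr* and *Prlr*, 8 of 27998 genes counted, were followed in single cells of embryonic mouse thymic lobes. They were taken by name, and their UMIs (unique molecular identifiers, each standing for a captured RNA molecule) were summed in 3 classes of cells. *Pax8* *Nkx2-1* cells held at least 1 UMI of each of these genes. Other *Epcam*-positive cells held at least 1 UMI of the epithelial adhesion gene *Epcam*, and the rest are called other cells. The classes held 129, 8894 and 14197 of 23220 cells over 3 libraries. Because *Pax8* and *Nkx2-1* chose the first class and *Epcam* the second, their levels in those classes are descriptions from which nothing is drawn.

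The thyroid buds from the endoderm in the floor of the embryonic pharynx, near the pouches that form the thymus and the parathyroids. Its precursors are recognised by the joint presence of the transcription factors Nkx2-1, Pax8, Hhex and Foxe1, each of which also works in other organs. Hormone production comes later, when follicular cells store and iodinate thyroglobulin under the control of thyrotropin (TSH).

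The study compared fetal thymic lobes with reduced growth from mouse mutants with normal lobes. All embryos were C57BL/6, aged E13 to E13.5, and 1 droplet library of 3′ RNA tags was made per genotype. The control was wild type (Tbx1+/+). Tbx1 neo2/neo2 embryos carry a neomycin cassette within an intron of *Tbx1*, in reverse orientation, which lowers *Tbx1* without removing it, and *Foxn1* mutant embryos carry a small deletion in both copies of *Foxn1*, the transcription factor of thymic epithelium. Neither the numbers of embryos behind each library nor their sex are given in the sources used here.

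The control library had 82936619 UMIs on 6410 barcodes, the Tbx1 neo2/neo2 library 137498422 on 5759 and the *Foxn1* mutant library 204655055 on 12447. Cells needed at least 200 genes and less than 20% mitochondrial UMIs, and 5932, 5516 and 11772 cells in the same order met this, with median depths of 13410, 20732.5 and 14652 UMIs. The control shared 17 barcodes with the Tbx1 neo2/neo2 library and 18 with the *Foxn1* mutant library, which shared 28 with each other, and no *Pax8* *Nkx2-1* cell was among them (0 in each comparison). Levels are given as CPM, the UMIs of a gene per 1000000 UMIs of the class in that library. Intervals in parentheses are exact 95% intervals (Poisson for a level, Clopper-Pearson for a share, conditional binomial for ratios), and hold only the error of counting. A count of 0 was bounded by 3 counts. With 1 library per genotype no difference between genotypes could be checked against replicates, and none was tested.

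The altered genes were read first. *Tbx1* (ENSMUSG00000009097; chr16:18580979-18590671) stood at 1.39 CPM (1.15 to 1.67) in the control, from 114 UMIs in all kept cells. The Tbx1 neo2/neo2 library had 656 *Tbx1* UMIs, 4.81 CPM (4.44 to 5.19), and the *Foxn1* mutant library 1102, 5.43 CPM (5.12 to 5.76). *Tbx1* was thus not lower where the label calls for a loss, and that library is called the library labelled as Tbx1 neo2/neo2. *Foxn1* (ENSMUSG00000002057; chr11:78357577-78386558) stood at 38.4 CPM in the control, at 34.6 in the library labelled as Tbx1 neo2/neo2 and at 76.5 in the *Foxn1* mutant library. The cassette lowers *Tbx1*, so its level does not bear out the label. According to the paper, however, the embryonic thymus does not express *Tbx1*, and the *Foxn1* mutant library was above the control as well. The level of *Tbx1* therefore cannot decide whether the label is right, and directions drawn from that library carry this caution. A small deletion need not lower 3′ tags, so the level of *Foxn1* does not check the other label. *Psmb11*, a target of Foxn1, stood at 194, 88.8 and 9.17 CPM in other *Epcam*-positive cells of the control, the library labelled as Tbx1 neo2/neo2 and the *Foxn1* mutant library, lowest where the label places the loss of Foxn1.

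*Pax8* *Nkx2-1* cells were concentrated in the library labelled as Tbx1 neo2/neo2. It held 119, or 2.16% of its kept cells (1.79 to 2.58), against 3 in the control (0.0506%, 0.0104 to 0.148) and 7 in the *Foxn1* mutant library (0.0595%, 0.0239 to 0.122). Its share was 42.7 times the control share (14.2 to 209.8) and 36.3 times that of the *Foxn1* mutant library (17.1 to 92.2). The *Foxn1* mutant share was 1.18 times the control share, with an interval from 0.268 to 7.05 that includes no difference. Among cells with *Epcam* or both class genes, the class made up 0.118% of 2541 control cells, 9.02% of 1319 cells of the library labelled as Tbx1 neo2/neo2 and 0.136% of 5163 *Foxn1* mutant cells. Barcodes that failed the filter (478, 243 and 675) included 0 with UMIs of both genes in each library, which allows up to 0.628%, 1.23% and 0.444% of them.

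Depth and embryo sex moved with these shares, and their part in the difference was not tested. The median *Pax8* *Nkx2-1* cell had 7578, 41401 and 19023 UMIs in the control, the library labelled as Tbx1 neo2/neo2 and the *Foxn1* mutant library, and the median other *Epcam*-positive cell 16744, 42584 and 19947.5. By UMIs of 4 Y-linked genes and of *Xist*, all 3 control cells of the class were Y-linked only and 5 of the 7 *Foxn1* mutant cells *Xist* only. Of the 119 cells in the library labelled as Tbx1 neo2/neo2, 98 were Y-linked only, 1 was *Xist* only, 8 had both and 12 had neither. Within Y-linked-only cells, chosen after the counts had been seen, the class made up 0.164% of control cells (0.0338 to 0.478) and 3.58% (2.91 to 4.34) in the library labelled as Tbx1 neo2/neo2. The *Foxn1* mutant library had 0 among 5328 such cells, which allows up to 0.0563%. *Xist*-only cells went another way. There the class held 0 of 1942 control cells (up to 0.1545%) and 1 of 429 cells of the library labelled as Tbx1 neo2/neo2 (0.233%, 0.00590 to 1.29). It held 5 of 1883 *Foxn1* mutant cells (0.2655%, 0.0863 to 0.619). In *Xist*-only cells the library labelled as Tbx1 neo2/neo2 was thus not above the *Foxn1* mutant library.

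**Figure D1:**
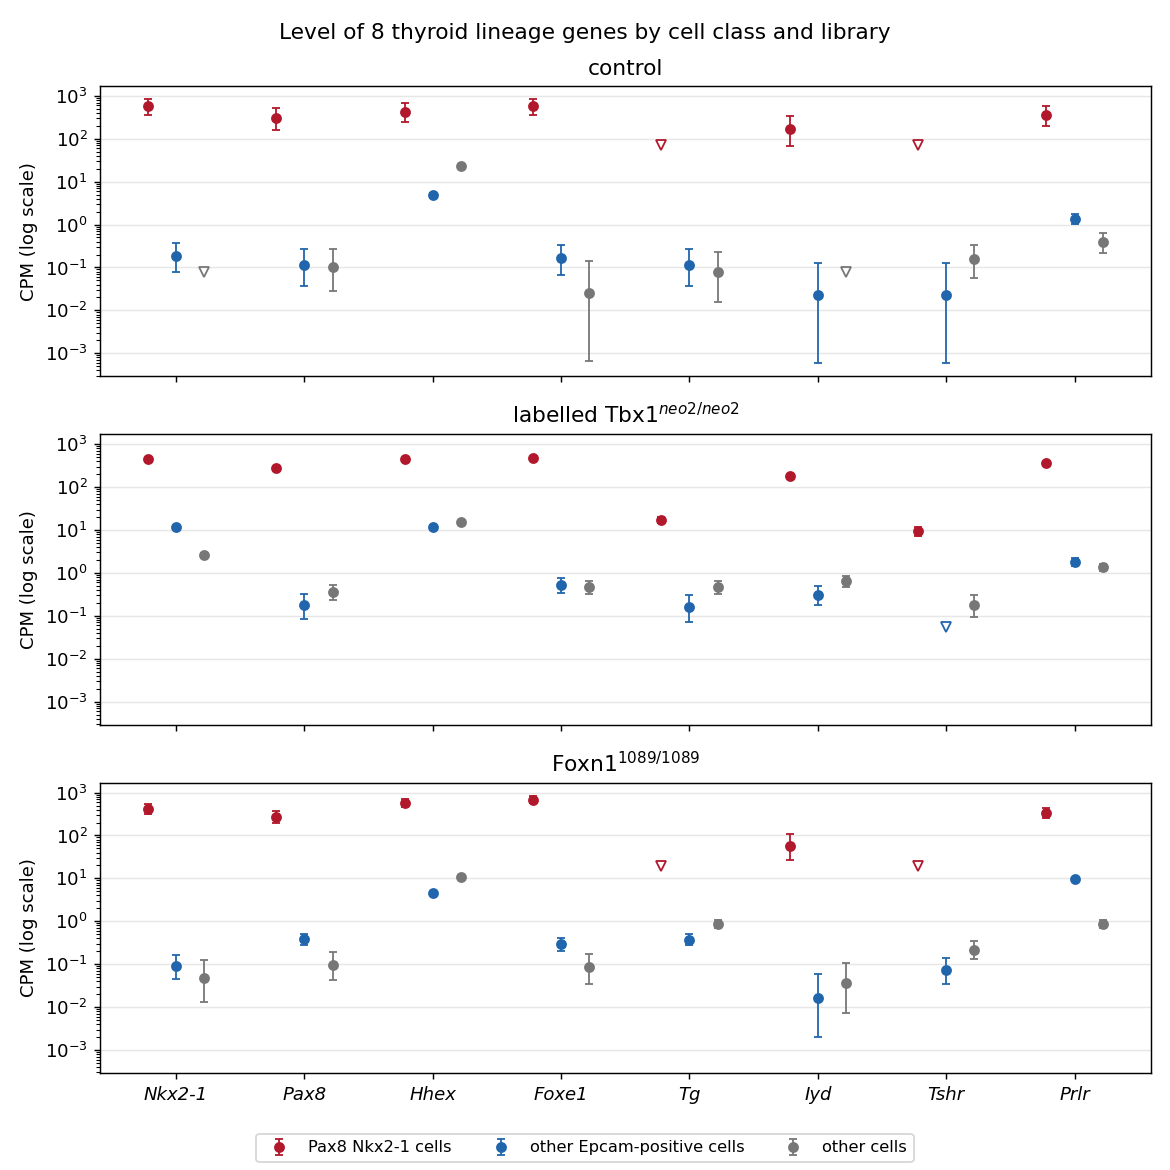
Level of each gene (CPM, log axis) in *Pax8* *Nkx2-1* cells, other *Epcam*-positive cells and other cells of each library; points are summed UMIs over the class, bars are exact 95% Poisson intervals, and open triangles mark the level that 3 counts would give where 0 were found. In the library labelled as Tbx1 neo2/neo2 the *Pax8* *Nkx2-1* cells stand above both other classes for each gene, from 9.40 CPM for *Tshr* upward.

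Among the transcription factors, *Nkx2-1* and *Pax8* defined the class. *Nkx2-1* (ENSMUSG00000001496; chr12:56531958-56536908, GRCm38, minus strand) encodes a homeodomain protein of thyroid, lung and ventral forebrain. It stood at 567 CPM in the control class (24 UMIs, 363 to 844), at 449 in the library labelled as Tbx1 neo2/neo2 (3152 UMIs, 434 to 465) and at 416 in the *Foxn1* mutant library (64 UMIs, 320.1 to 531). In other *Epcam*-positive cells it stood at 0.186, 11.8 and 0.0917 CPM, and in other cells at 0 (up to 0.0772), 2.57 and 0.0484. Outside the class, *Nkx2-1* was thus higher in the library labelled as Tbx1 neo2/neo2 than in either other library. *Pax8* (ENSMUSG00000026976; chr2:24420560-24475599, minus strand), a paired-box factor of thyroid and kidney, had 13, 1986 and 42 UMIs in the class, or 307 (164 to 525), 283 (271 to 296) and 273 CPM (197 to 369). Other *Epcam*-positive cells had 0.116, 0.179 and 0.383 CPM of it, and other cells 0.103, 0.353 and 0.0967. Within the class the intervals of the 3 libraries overlapped for both genes.

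*Hhex* (ENSMUSG00000024986; chr19:37434810-37440731, plus strand), a homeobox factor of thyroid and liver buds that also works in blood and endothelium, was not used to choose the cells. In the class it had 18 UMIs in the control, 425 CPM (252 to 672), 3237 in the library labelled as Tbx1 neo2/neo2, 461 CPM (445 to 477), and 89 in the *Foxn1* mutant library, 578 CPM (464 to 711). In the second class *Hhex* stood at 4.82 (4.18 to 5.52), 11.9 (11.0 to 12.8) and 4.52 CPM (4.14 to 4.91). *Hhex* was the one gene of the 8 with sizeable levels in other cells, at 23.1 (21.6 to 24.6), 15.7 (14.8 to 16.7) and 11.0 CPM (10.3 to 11.7). These lay in *Ptprc*-positive cells, with 42.3, 59.8 and 72.6 CPM, and in *Pecam1*- or *Cdh5*-positive cells, with 41.5, 51.6 and 41.5 CPM. *Pdgfra*-positive cells had only 0.415, 0.685 and 0.256 CPM, so that blood and endothelial marker genes went with most *Hhex* outside the class. Within the class the library labelled as Tbx1 neo2/neo2 stood at 0.798 times the *Foxn1* mutant level (0.646 to 0.996) and 1.08 times the control (0.685 to 1.83).

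*Foxe1* (ENSMUSG00000070990; chr4:46343609-46346412, plus strand) encodes the forkhead factor of thyroid precursors, needed for their migration. It had 24, 3377 and 106 UMIs in the class, or 567 (363 to 844), 481 (465 to 498) and 688 CPM (564 to 833). Its level in other *Epcam*-positive cells was 0.163 (0.0655 to 0.336), 0.519 (0.348 to 0.746) and 0.292 CPM (0.203 to 0.406), and other cells 0.0257, 0.475 and 0.0847. Between libraries class cells under the Tbx1 neo2/neo2 label had 0.699 times the level of *Foxn1* mutant ones (0.576 to 0.856) and 0.848 times the control (0.569 to 1.33). *Foxe1* thus stood in the class of every library and near 0 outside it. A long noncoding gene on the opposite strand, *Gm12446* (chr4:46300007-46345515), overlaps it and had 9, 1149 and 32 UMIs in the class. Its level there was 213, 164 and 208 CPM. How tags of the shared stretch were divided between the genes is not given in the sources used here.

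Of the genes of hormone synthesis, *Tg* (ENSMUSG00000053469; chr15:66670753-66850721, plus strand) encodes thyroglobulin, the protein on which the hormone is made. It had 121 UMIs in the class in the library labelled as Tbx1 neo2/neo2, 17.2 CPM (14.3 to 20.6), and 0 in the other libraries. With 42310 and 153982 UMIs in those classes, counts of 0 allow up to 70.9 CPM in the control and 19.5 in the *Foxn1* mutant library, so a difference between libraries was not detectable at this depth. *Tg* stood at 0.116, 0.161 and 0.375 CPM in other *Epcam*-positive cells and at 0.0772, 0.462 and 0.871 in other cells. Its level in hemoglobin-rich cells (at least 20% hemoglobin UMIs) was 0.282 (0.00714 to 1.57), 2.26 (1.29 to 3.68) and 2.05 CPM (1.55 to 2.66). In the mutant libraries these cells were thus above other *Epcam*-positive cells, and in the library labelled as Tbx1 neo2/neo2 the class was above both.

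*Iyd* (ENSMUSG00000019762; chr10:3540240-3554877, plus strand) encodes iodotyrosine deiodinase, which recovers iodide from hormone precursors. In the class it had 7 UMIs in the control, 165 CPM (66.5 to 341), and 1302 in the library labelled as Tbx1 neo2/neo2, 185.5 CPM (176 to 196). The *Foxn1* mutant library had 9, or 58.4 CPM (26.7 to 111). This made the level in the library labelled as Tbx1 neo2/neo2 3.17 times that of the *Foxn1* mutant cells (1.67 to 6.96), which rests on 9 UMIs in 4 cells. Other *Epcam*-positive cells had 0.0233, 0.304 and 0.0167 CPM and other cells 0 (up to 0.0772), 0.652 and 0.0363. Outside the class *Iyd* was therefore close to 0 in each library.

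Of the receptors, *Tshr* (ENSMUSG00000020963; chr12:91384563-91549808, plus strand) encodes the TSH receptor. It had 66 UMIs in the class in the library labelled as Tbx1 neo2/neo2, 9.40 CPM (7.27 to 11.96), and 0 in the control and *Foxn1* mutant classes, where up to 70.9 and 19.5 CPM are allowed. Other *Epcam*-positive cells had 0.0233 CPM in the control, 0 (up to 0.0537) in the library labelled as Tbx1 neo2/neo2 and 0.0750 in the *Foxn1* mutant library, and other cells 0.154, 0.177 and 0.218. Like *Tg*, *Tshr* was seen in the class only in the library with the most class cells.

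*Prlr* (ENSMUSG00000005268; chr15:10177238-10349180, plus strand) encodes the prolactin receptor, which signals through Jak2 and Stat5. It had 15, 2629 and 52 UMIs in the class, or 354 (198 to 585), 375 (360.4 to 389) and 338 CPM (252 to 443). Other *Epcam*-positive cells had 1.35 (1.03 to 1.74), 1.81 (1.47 to 2.20) and 9.63 CPM (9.09 to 10.2), and other cells 0.386, 1.34 and 0.871. The class levels of the libraries did not differ beyond counting error, while the *Foxn1* mutant library stood apart in other *Epcam*-positive cells.

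The question of how sharply these genes set the class apart was answered within the library labelled as Tbx1 neo2/neo2. *Hhex* was 38.9 times as high in *Pax8* *Nkx2-1* cells as in other *Epcam*-positive cells (35.7 to 42.3), a log2 ratio of 5.28. Over 6 alternative ways of processing, this log2 ratio ran from 4.89 to 6.44. The ratio was 927 for *Foxe1* (644 to 1386), 609.5 for *Iyd* (379 to 1049.5) and 207 for *Prlr* (169.8 to 255). With each cell weighted equally, the log2 ratio of *Foxe1* fell from 9.86 to 5.80 and that of *Iyd* from 9.25 to 7.87, so the size of these ratios depends on the weighting. *Tg* was 107 times as high (54.5 to 239.6), and *Tshr*, with 0 UMIs in other *Epcam*-positive cells, at least 175-fold higher against a floor of 3 counts. All 6 genes that did not define the class were at least 4-fold higher in it, where 2.71% of 14516 genes with at least 30 UMIs over both classes were (394 genes), and 9.16% were at least 4-fold lower (1330). Of the 6, *Foxe1*, *Tg*, *Iyd* and *Tshr* reached 30 UMIs only through the class, and could not have been counted otherwise, so the count is no support. The median log2 ratio of all 14516 genes was -0.01.

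In the other libraries the same ratios rest on few UMIs. For *Hhex* they were 88.3 in the control (51.3 to 143) and 128 in the *Foxn1* mutant library (101 to 160.4). For *Foxe1* they were 3481.5 (1455 to 9568) and 2359.8 (1597 to 3564), and for *Prlr* 263 (138 to 469.5) and 35.0 (26.0 to 46.3). *Iyd* had 1 and 2 UMIs in the compared cells, with ratios of 7108 (913 to 320351) and 3506 (726 to 33349). *Hhex*, *Foxe1*, *Iyd* and *Prlr* were therefore higher in the few class cells of these libraries as well.

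Shares of cells with a UMI move with depth, so each cell was also thinned at random to 5000 UMIs. This left out 8 shallower *Pax8* *Nkx2-1* cells of the library labelled as Tbx1 neo2/neo2, 117 other *Epcam*-positive cells and 19 hemoglobin-rich cells, the last of which served as a comparison for free RNA. *Hhex* was found in 97.5% of the class before thinning and in 85.6% after (77.7 to 91.5), *Foxe1* in 95.0% and 88.3% (80.8 to 93.6), and *Prlr* in 89.9% and 72.1% (62.8 to 80.2). For *Iyd* the shares were 85.7% and 45.9% (36.5 to 55.7). Hemoglobin-rich cells, at a median of 18663 UMIs against 41401 in the class, had *Hhex* in 1.68% of cells before thinning and 0.592% after, *Foxe1* in 1.12% and 0.296%, and *Iyd* and *Prlr* in 0% (up to 0.888% after thinning). These 4 genes were thus found in far more cells of the class than of the hemoglobin-rich cells.

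*Tg* and *Tshr* were seen in a minority of class cells. *Tg* was found in 35.3% of cells before thinning and 2.70% after (0.561 to 7.70), against 4.20% and 0.296% (0.00749 to 1.64) of hemoglobin-rich cells. Since *Tg* was higher in hemoglobin-rich than in other *Epcam*-positive cells, these cells give no floor of free RNA for it. The thinned intervals overlap, while the levels in CPM did not. *Tshr* was found in 32.8% and 6.31% (2.57 to 12.6), against 0% of hemoglobin-rich cells (up to 0.888% after thinning). In other *Epcam*-positive cells the thinned shares were 4.06% for *Hhex*, 0.277% for *Foxe1*, 0.369% for *Iyd*, 0.739% for *Prlr* and 0% for *Tg* and *Tshr* (up to 0.277%).

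**Figure D2:**
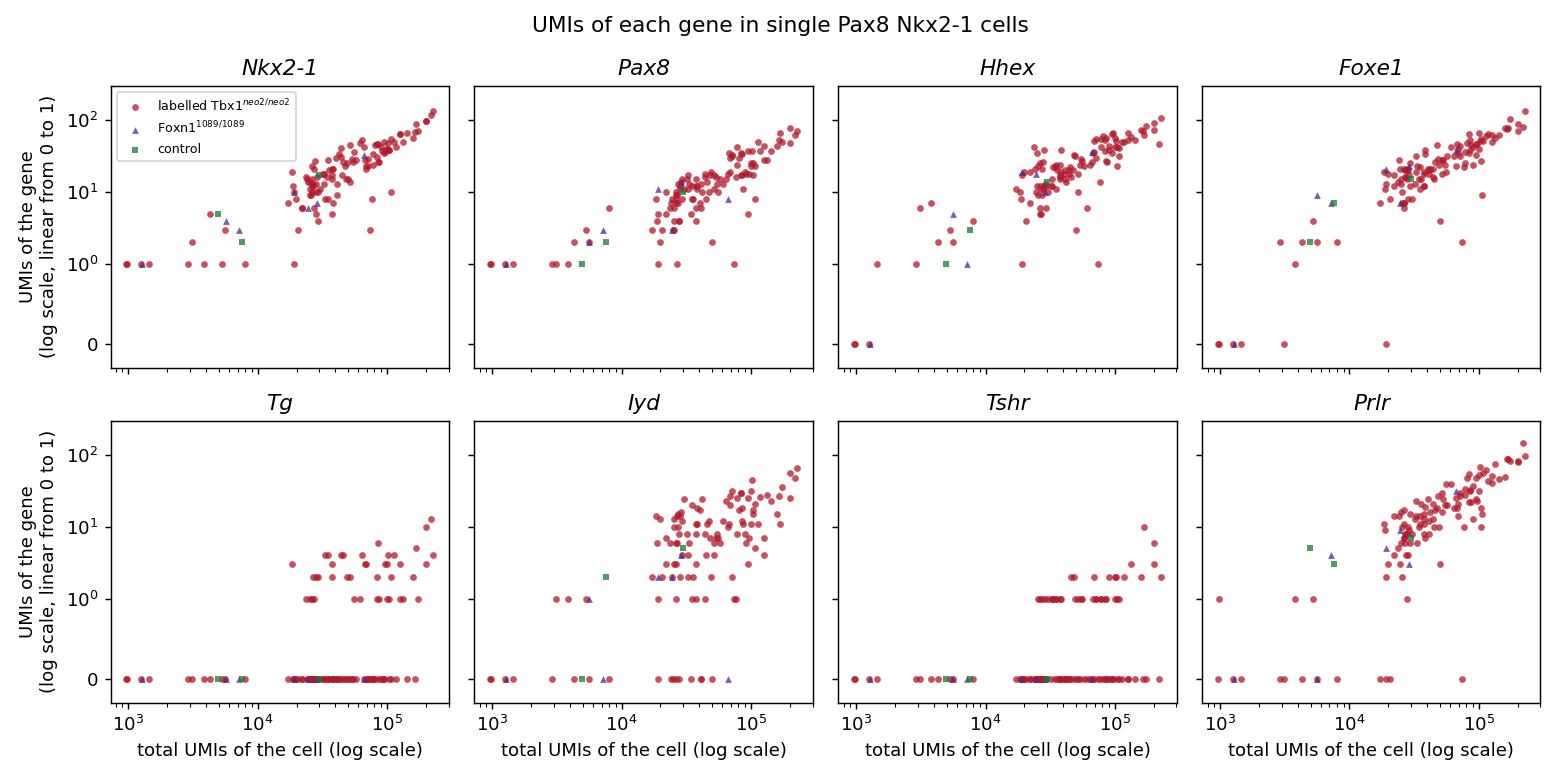
UMIs of each gene (log axis, linear from 0 to 1) against the total UMIs of the cell (log axis) in single *Pax8* *Nkx2-1* cells of the 3 libraries; each point is a cell. Counts rise with depth for *Nkx2-1*, *Pax8*, *Hhex*, *Foxe1*, *Iyd* and *Prlr*, whereas the median cell of the library labelled as Tbx1 neo2/neo2 has 0 UMIs of *Tg* and of *Tshr*.

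The genes were found together in single cells. Of the 119 class cells in the library labelled as Tbx1 neo2/neo2, 98 (82.4%) had UMIs of at least 4 of the 6 other genes, 22 had all 6 and 2 had none (0). The median cell there had 21 UMIs of *Hhex* (0 to 108), 21 of *Foxe1* (0 to 134), 7 of *Iyd* (0 to 65) and 14 of *Prlr* (0 to 144). *Tg* reached at most 13 UMIs in a cell and *Tshr* at most 10. The 3 control cells had UMIs of 3, 4 and 4 of the 6 genes, and the 7 *Foxn1* mutant cells of 0 in 1 cell, 3 in 3 cells and 4 in 3 cells. Among other *Epcam*-positive cells, UMIs of at least 3 of the 6 were found in 1 of 2538 control cells, 3 of 1200 cells of the library labelled as Tbx1 neo2/neo2 and 0 of 5156 *Foxn1* mutant cells.

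Cells just inside the class had 1 UMI each of *Pax8* and *Nkx2-1*. There were 7 in the library labelled as Tbx1 neo2/neo2, at a median of 1450 UMIs (957 to 19116), and 4 of them had *Hhex*, 2 *Foxe1*, 2 *Prlr*, 1 *Iyd* and 0 *Tg* or *Tshr*. The 107 cells with at least 2 UMIs of each had a median of 46146. All 107 had *Hhex* and *Foxe1*, 103 had *Prlr*, 97 *Iyd*, 41 *Tg* and 39 *Tshr*. Shallow cells at the edge of the class thus showed fewer of the genes.

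Just outside were *Epcam*-positive cells with *Nkx2-1* and no *Pax8* UMI, 4 in the control, 91 in the library labelled as Tbx1 neo2/neo2 and 3 in the *Foxn1* mutant library. The 91 cells held all 660 *Nkx2-1* UMIs of other *Epcam*-positive cells in that library, 60 of them with at least 3 UMIs, at a median depth of 40093. They had 52 UMIs of *Hhex*, 6 of *Foxe1*, 6 of *Iyd*, 5 of *Prlr*, 1 of *Tg* and 0 of *Tshr*. Thyroid genes other than *Nkx2-1* were thus scarce in them. *Sox2*, a factor of foregut and airway epithelium, stood at 253 CPM (239 to 268) in these cells, against 0.831 in *Epcam*-positive cells with neither class gene. *Foxa2*, a forkhead factor of foregut endoderm, stood at 152 CPM against 0.119, *Foxa1* at 138 against 0.297 and the airway secretory gene *Scgb3a2* at 22.4 against 0.0198. *Epcam*-positive cells with *Pax8* and no *Nkx2-1* numbered 5, 10 and 24, with 5, 10 and 46 *Pax8* UMIs and 0 UMIs of *Tg*, *Iyd* and *Tshr*.

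Other genes of the thyroid were read from fixed lists, by the ratio of the class to other *Epcam*-positive cells in the library labelled as Tbx1 neo2/neo2. By this ratio 2.71% of all 14516 genes were at least 4-fold higher and 9.16% at least 4-fold lower, shares that stand beside each list below. Genes could reach 30 UMIs through the class alone, as *Duoxa2* did with 108 of its 120 library UMIs there. Counts of higher genes in the lists are therefore no support. Of 14 further genes of hormone synthesis and iodide handling, 8 had 30 UMIs, 2 were at least 4-fold higher and 2 at least 4-fold lower, with a median log2 ratio of -0.93. *Duoxa2*, a maturation factor of the enzyme that makes the peroxide for iodination, had 15.4 CPM in the class against 0.0895 (172-fold), and the anion transporter gene *Slc26a7* 26.8 against 3.72 (7.19-fold). *Duoxa1* and *Ano1* were the lower genes, at 0.712 against 10.2 and 0.427 against 5.37 CPM. Of other genes of the list, the class held 6 UMIs of the iodide transporter gene *Slc5a5*, 22 of *Duox2* and 0 of *Duox1*. The list summed to 0, 49.6 and 39.0 CPM in the class of the 3 libraries, against 34.4, 23.9 and 23.2 in other *Epcam*-positive cells.

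Of 7 genes of thyroid hormone transport and receptors, 5 had 30 UMIs, and the median log2 ratio was -0.47. *Slc16a10*, an amino acid and hormone transporter gene, was lower in the class (1.57 against 10.9 CPM). The nuclear receptor gene *Thra* stood at 45.3 against 42.0 CPM. Of 13 genes of the TSH and prolactin axis, 8 had 30 UMIs, 0 were higher and *Stat5a* was lower (1.71 against 12.7 CPM), with a median log2 ratio of -0.16. The ligand genes *Tshb*, *Cga* and *Prl* and the receptor gene *Trhr* had 0 UMIs in the class, so that *Tshr* and *Prlr* were read without their ligands.

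Among 15 other regulators of thyroid development, 14 had 30 UMIs and 2 were higher, with a median log2 ratio of -0.78. *Bmp5* and *Cdh16* were the higher ones, the latter, a cadherin of thyroid and kidney, at 9.69 against 0.269 CPM. *Hoxa3* (2.14 against 21.5 CPM), *Tbx1* (0.712 against 5.21) and *Fgf10* (0.285 against 2.13), which pattern the pharynx and its pouches, were lower. *Bcl2*, a survival gene, stood at 122 against 43.1 CPM and *Hes1* at 210 against 239, both inside 4-fold.

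Markers of other cell types were read in the same way. Of 12 genes of thymic epithelium, 10 were at least 4-fold lower in the class, with a median log2 ratio of -3.98. *Foxn1* stood at 4.99 against 82.6 CPM and *Psmb11* at 5.41 against 88.8, and the list summed to 567, 844 and 598 CPM in the class of the 3 libraries, led by *Ctsl*. In the library labelled as Tbx1 neo2/neo2, 13 class cells held a *Foxn1* or *Psmb11* UMI, and 3 of them (74596 to 103557 UMIs) held 29 of 35 *Foxn1* and 34 of 38 *Psmb11* UMIs. By doublet scores, 0, 4 and 2 class cells of the 3 libraries were likely doublets. The 5 blood genes were all lower (median log2 ratio -4.33), with 37.6 CPM against 471 summed, led by *Cd3g*, whose 109 UMIs all lay in 1 class cell, and the 5 mesenchymal genes as well (-3.25; 41.2 against 557 CPM, led by *Col3a1*). Of 5 endothelial genes only *Emcn* was lower (-0.16; 38.2 against 47.3 CPM, led by *Pecam1*), but 1 cell held 80 of 85 *Pecam1* UMIs, and for *Cdh5*, *Kdr* and *Tek* the highest cell held 77 of 79, 43 of 45 and 52 of 55. The list thus does not describe the class as a whole. Their part in the levels of the thyroid genes was not tested.

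The parathyroid genes *Gcm2* and *Casr* had 0 UMIs in the class of the library labelled as Tbx1 neo2/neo2. Of the 6 genes of that list 2 had 30 UMIs, with a median log2 ratio of -0.57. They went opposite ways, *Tbx1* lower (0.712 against 5.21 CPM) and *Chga* higher but within 4-fold (1.425 against 0.430). In the *Foxn1* mutant library the list summed to 84.4 CPM in the class, against 6770.8 in other *Epcam*-positive cells. *Pth* was found there in 6 of the 7 class cells, with 11 UMIs, at most 3 in a cell, or 71.4 CPM (35.7 to 127.8). It was also found in 63.6% of other *Epcam*-positive cells of that library (5113 CPM). Other cells had it in 44.8%, at 65.9 CPM, a level inside the interval of the class. Of 7 genes of calcitonin-producing cells and their precursors, 5 had 30 UMIs and *Ret* was higher (5.98 against 0.358 CPM), with a median of -0.95 and 8.83 against 7.13 CPM summed. Among 10 lung and airway genes 6 had 30 UMIs, with a median of -0.65. The surfactant gene *Sftpb* was higher, with 44 UMIs (6.27 CPM) against 0, while *Sftpd*, *Scgb1a1* and *Cldn18* had 0 UMIs. *Sox2* was lower than in other *Epcam*-positive cells (3.42 against 21.6 CPM) only through the cells with *Nkx2-1* alone, since *Epcam*-positive cells with neither class gene stood at 0.831 CPM. *Scgb3a2* was lower in the same way, with 1 UMI in the class and 1 in the cells with neither gene. Of 12 epithelial adhesion and keratin genes *Cldn3*, *Cldn6* and *Cldn7* were higher, at 130.2, 185 and 249 against 18.8, 33.0 and 48.8 CPM, and *Sfn* was lower, with a median of 0.66. Of 8 red blood cell genes *Hbb-bh1* was higher and 2 were lower (median -1.14; 2511.5 against 6008.5 CPM, led by *Hbb-bs*). A single cell held all 172 *Hbb-bh1* UMIs of the class, and 7081 of the 7720 *Hbb-bs* UMIs also lay in 1 cell, so neither describes the class. The 6 cell cycle genes were all within 4-fold, with a median of 0.12, and *Top2a* stood at 428 against 453 CPM.

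The genes whose UMIs lay most within the class were named by their share of the UMIs of the library labelled as Tbx1 neo2/neo2, among genes with at least 100 UMIs there. The class held 98.2% of *Pax8*, 98.1% of *Foxe1*, 95.2% of *Iyd*, 92.9% of *Prlr*, 83.5% of *Tshr*, 78.8% of *Nkx2-1*, 73.8% of *Tg* and 64.0% of *Hhex*. *Tshr* had fewer than 100 UMIs in that library (79). The 15 other genes with the highest shares ran from *Gm12446* (95.8%), *Slc4a5* (94.6%), *Asgr1* (91.6%), *Kcnh3* (90.8%) and *Duoxa2* (90.0%) through *Sall1* (86.6%), *Clic3* (84.4%), *Amdhd1* (81.0%), *D630039A03Rik* (80.3%), *Csmd2* (80.2%) and *Igsf1* (78.6%) to *Rmst* (75.6%), *Fam189a2* (73.1%), *Nptx1* (71.1%) and *Npy* (71.0%). *Slc4a5* encodes a bicarbonate transporter, *Asgr1* a glycoprotein receptor subunit, *Kcnh3* a potassium channel, *Sall1* a zinc finger factor and *Npy* a neuropeptide. *Slc4a5* stood at 47.3, 71.9 and 71.4 CPM in the class of the 3 libraries, against 0.186, 0.233 and 0.133 in other *Epcam*-positive cells, and *Sall1* at 23.6, 98.9 and 64.9 against 0.0466, 0.501 and 0.308. The 8 genes with the lowest ratios, *Krtdap*, *Gzmb*, *Cpa3*, *Mzb1*, *Cd52*, *Alox5ap*, *S100a9* and *Fcer1g*, are genes of keratinocytes and blood cells, with 1 to 7 UMIs in the class in the library labelled as Tbx1 neo2/neo2 and 0 in the other libraries.

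Between genotypes, the levels over all kept cells were compared with the control to ask how far the number of class cells carries into whole lobes. *Nkx2-1* was 75 times the control in the library labelled as Tbx1 neo2/neo2 (53.0 to 109.8), *Pax8* 55.1 times (36.3 to 88.2), *Foxe1* 64.5 times (45.6 to 94.5) and *Iyd* 102 times (51.9 to 238). *Prlr* was 19.3 times as high (15.6 to 24.1), *Tg* 12.3 times (6.10 to 29.0), *Tshr* 6.77 times (3.14 to 17.4) and *Hhex* 2.70 times (2.53 to 2.89). All 8 were at least 2-fold higher, as were 23.3% of 16654 genes. Of the 8, *Pax8*, *Tg*, *Iyd* and *Tshr* reached 30 UMIs only with that library, in which they were high, so the count is no support. *Hhex*, with a broad level in other cells, moved least. The median log2 ratio of all genes was 0.43, and whether this shift comes from scaling was not tested. With each cell weighted equally, the log2 ratio of *Prlr* fell from 4.27 to 2.50 and that of *Tshr* from 2.76 to 1.02. In the same weighting those of *Nkx2-1*, *Foxe1* and *Iyd* were 5.16, 5.02 and 5.68, below 6.23, 6.01 and 6.68.

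In the *Foxn1* mutant library over the control, *Tg* was 5.90 times as high (2.90 to 14) and *Prlr* 5.87 times (4.73 to 7.37). These were 2 of the 7 members with 30 UMIs, and 14.3% of 16747 genes were at least 2-fold higher, with a median log2 ratio of 0.17. *Tg* was among 3 members that reached 30 UMIs only with the mutant library, so their number is no support. With each cell weighted equally, the log2 ratio of *Prlr* was 1.08 instead of 2.55, that of *Tg* 3.38 instead of 2.56 and that of *Pax8* 1.83, past 2-fold, instead of 0.82. *Nkx2-1* stood at 0.997 times the control (0.653 to 1.55), *Pax8* at 1.76 (1.10 to 2.94), *Foxe1* at 1.87 (1.27 to 2.83), *Iyd* at 0.707 (0.277 to 1.94) and *Hhex* at 0.553 (0.512 to 0.598). *Tshr* stood at 1.56 times (0.662 to 4.24), a direction that turned in an alternative scaling. For *Tg*, 56 of the 117 UMIs lay in hemoglobin-rich cells, which were 5.98%, 6.47% and 16.9% of the kept cells of the 3 libraries, and their part in the difference was not tested.

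Within other *Epcam*-positive cells, 3 of the 4 members with 30 UMIs were at least 2-fold higher in the library labelled as Tbx1 neo2/neo2 than in the control, against 18.6% of 15036 genes and a median log2 ratio of 0.44. *Nkx2-1* and *Foxe1*, 2 of these 3, reached 30 UMIs only through the library in which they were high, so the count is no support. *Nkx2-1* was 63.5 times as high (32.0 to 148), *Hhex* 2.46 times (2.11 to 2.89) and *Foxe1* 3.19 times (1.37 to 8.62). Without the cells that held 1 of the class genes alone, *Hhex* (log2 ratio 1.35) and *Foxe1* (1.90) stayed above 2-fold, *Foxe1* from only 27 UMIs, too few to be counted, and *Nkx2-1* had no value by construction. With a median-of-ratios size factor *Hhex* fell to a log2 ratio of 0.87, short of 2-fold. Equal weight for each cell gave log2 ratios of 4.58 for *Nkx2-1*, 2.17 for *Hhex* and 4.83 for *Foxe1*, against 5.99, 1.30 and 1.67. *Prlr* was 1.34 times as high (0.960 to 1.88), *Pax8* 1.54 (0.479 to 5.74) and *Tg* 1.38 (0.417 to 5.26), intervals that include no difference, and the directions of *Prlr* and *Tg* turned in alternatives. *Iyd* was 13.1 times as high (2.05 to 546.5), from 17 UMIs against 1.

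In *Foxn1* mutant other *Epcam*-positive cells over the control, *Prlr* was 7.14 times as high (5.48 to 9.46), *Pax8* 3.29 times (1.31 to 10.6) and *Tg* 3.22 times (1.28 to 10.4). These were 3 of 5 members with 30 UMIs, beside 19.6% of 15777 genes and a median log2 ratio of 0.29. *Pax8* and *Tg* reached 30 UMIs only through the *Foxn1* mutant library, as 3 of the 5 did, so this count is no support either. Equal weight for each cell gave *Prlr* a log2 ratio of 1.82 instead of 2.84. *Hhex* (0.938, 0.797 to 1.11), *Foxe1* (1.79, 0.784 to 4.78), *Nkx2-1* (0.492, 0.180 to 1.41) and *Tshr* (3.22, 0.447 to 141) had intervals that include no difference. The directions of *Hhex*, *Foxe1* and *Tshr* turned in alternatives, with *Foxe1* at a log2 ratio of -0.69 when each cell had equal weight, where *Nkx2-1* fell to -3.07. *Iyd* rested on 2 UMIs against 1 and gives no fold.

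*Prlr* in these cells went with the parathyroid factor *Gcm2*, a split chosen after the counts had been seen. *Gcm2*-positive cells numbered 28 in the control, 0 in the library labelled as Tbx1 neo2/neo2 and 399 in the *Foxn1* mutant library. *Prlr* stood at 33.7 CPM in the 28 (14 UMIs, 18.4 to 56.5) and at 71.7 in the 399 (1046 UMIs, 67.4 to 76.1). In *Epcam*-positive cells without *Gcm2* it stood at 1.03 (0.751 to 1.39), 1.81 (1.47 to 2.20) and 1.04 CPM (0.858 to 1.26). Without *Gcm2*-positive cells the log2 ratio of *Prlr* between the *Foxn1* mutant library and the control was 0.01, against 2.84 with them. *Prlr* was thus shared between the thyroid-gene class and *Gcm2*-positive cells, where *Foxe1* and *Pax8* had 0 UMIs.

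The coordinates above are those of GENCODE release M21 on GRCm38. Promoter sequences, from RefSeq on GRCm38.p6, were found for 5 of the 8 genes (*Nkx2-1*, *Pax8*, *Hhex*, *Iyd* and *Prlr*). Those of 3 genes that move with the class without defining it are printed, as the 250 bases before the start on the plus strand of the gene: *Hhex* (chr19:37434591-37434840, plus), *Iyd* (chr10:3540024-3540273, plus) and the most upstream of 3 *Prlr* starts (chr15:10176988-10177237, plus). Capitals mark matches, on either strand, to CTCAAG or the overlapping core TCAAGTG, both bound by Nkx2-1, to TGCCC, core letters bound by Pax8, and to TATAAA.

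Hhex: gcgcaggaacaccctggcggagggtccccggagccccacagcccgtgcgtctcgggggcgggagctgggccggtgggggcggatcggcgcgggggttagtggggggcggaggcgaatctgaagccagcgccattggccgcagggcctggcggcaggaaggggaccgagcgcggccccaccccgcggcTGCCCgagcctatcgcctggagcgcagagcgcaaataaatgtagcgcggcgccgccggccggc
Iyd: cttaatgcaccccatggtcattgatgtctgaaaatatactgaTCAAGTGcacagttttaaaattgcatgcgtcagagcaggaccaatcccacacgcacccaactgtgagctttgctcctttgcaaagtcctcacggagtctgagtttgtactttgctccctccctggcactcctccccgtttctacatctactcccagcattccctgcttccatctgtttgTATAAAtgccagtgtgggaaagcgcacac
Prlr: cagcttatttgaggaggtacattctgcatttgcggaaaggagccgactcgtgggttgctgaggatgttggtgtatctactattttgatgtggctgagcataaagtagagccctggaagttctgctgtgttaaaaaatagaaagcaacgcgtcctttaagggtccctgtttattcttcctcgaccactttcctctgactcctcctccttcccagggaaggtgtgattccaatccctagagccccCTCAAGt

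*Hhex* had 1 TGCCC, *Iyd* 1 TCAAGTG and 1 TATAAA, and *Prlr* 1 CTCAAG in these windows. Of 32851 mouse promoters of the same length, 13.3% held CTCAAG, 2.68% TCAAGTG, 47.7% TGCCC and 12.4% TATAAA. The windows of *Nkx2-1* and *Pax8* held none of these letters. A match describes the sequence and does not show a binding site.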

How the data were processed

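The counts used were those deposited by the authors, as UMIs per gene and called barcode, made with Cell Ranger 3.0.0 on mm10; Seurat is named in the labels and its output was not used. Cells were filtered, put in classes and summed as described above, in Python 3.11.15 with numpy 2.4.6, scipy 1.17.1 and pandas 2.3.3, and plotted with matplotlib 3.10.9. Scrublet in scanpy 1.11.5 (anndata 0.12.19) scored doublets, and the highest scores, 0.8% per 1000 barcodes, were called likely doublets and kept. Other cells were split, in order, into hemoglobin-rich, *Ptprc*-positive, *Pecam1*- or *Cdh5*-positive, *Pdgfra*-positive and remaining cells. Counts of genes past a fold used those with at least 30 UMIs over both sides, while ratios of the 8 members are given below that limit too. Named were the 8 genes, the genes of the lists, the 15 other genes with the highest share of library UMIs in the class and the 8 with the lowest ratio among genes, other than hemoglobin genes, whose level in other *Epcam*-positive cells predicted at least 100 UMIs in the class. The members and lists were chosen with earlier results of these data known. Intervals and ratios were tested on simulated data. The alternatives changed the UMIs needed per class, the depth, the cell filter, the doublets, the scaling and the cells counted. No test between genotypes was run.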

Additional observations from a re-analysis of the deposited data

Results flagged for a closer look

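Over all kept cells, the log2 ratio of *Hhex* to the control was 1.43 in the library labelled as Tbx1 neo2/neo2 and -0.85 in the *Foxn1* mutant library, opposite directions in the 2 mutant libraries. The difference was not tested, since each genotype had 1 library. *Ptprc*-positive cells, in which *Hhex* stood at 42.3, 59.8 and 72.6 CPM, made up 14.6%, 4.12% and 2.76% of cells kept from the control, the library labelled as Tbx1 neo2/neo2 and the *Foxn1* mutant library. Their share was thus lower in both mutant libraries. *Pax8* *Nkx2-1* cells held 1.60%, 64.0% and 5.79% of the *Hhex* UMIs of the libraries, in the same order. The part of either class in the opposite directions was not tested.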

How the results depend on the processing

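Across the changed thresholds, depths and filters, *Pax8* *Nkx2-1* cells of the library labelled as Tbx1 neo2/neo2 had 39.8 to 101 times the control share and 36.7 to 54.1 times the *Foxn1* mutant share. Classes called after thinning to 10000 UMIs gave 2.59% in the library labelled as Tbx1 neo2/neo2. Y-linked-only cells, chosen after seeing the data, gave 0.164% in the control, 3.58% and 0%, with a ratio to the control of 21.8 (7.25 to 108) and none to the *Foxn1* mutant library. *Xist*-only cells gave 0%, 0.233% and 0.2655% in the same order, with the library labelled as Tbx1 neo2/neo2 not above the *Foxn1* mutant library. Median-of-ratios size factors lowered the genes at least 2-fold higher in the library labelled as Tbx1 neo2/neo2 over the control to 1236 in other *Epcam*-positive cells (from 2795) and 2101 in all kept cells (from 3881). Weighting each cell equally lowered those of the *Foxn1* mutant library in all kept cells to 1266 (from 2388). Leaving out cells with *Nkx2-1* or *Pax8* alone left 1 counted member of 3 at least 2-fold higher in other *Epcam*-positive cells of the library labelled as Tbx1 neo2/neo2. *Foxe1* was lost to the limit of 30 UMIs, with a log2 ratio of 1.90, and the 2 class genes have no value by construction. The cause of the other changes was not tested. Of 36 class ratios 28 stayed within their intervals, of 92 genotype ratios in other *Epcam*-positive cells 79 and of 48 in all kept cells 36. Of 12 shares of cells, 10 moved with the thinning depth. The control and *Foxn1* mutant classes, with 3 and 7 cells, limit what can be said of *Tg* and *Tshr*.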

Other observations

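*Nkx2-1* was also found in cells with no *Epcam* and no *Pax8* UMI, 0 in the control, 94 in the library labelled as Tbx1 neo2/neo2 and 3 in the *Foxn1* mutant library. Of the 94, 41 were *Pdgfra*-positive, at a median depth of 28247 UMIs, and held 109 of the 189 *Nkx2-1* UMIs. In 14 of the 41 at least 3 *Nkx2-1* UMIs were counted. The mesenchymal list summed to 3582 CPM in the 41 cells, and *Sox9*, a factor of cartilage and of several epithelia, stood at 245 CPM (218 to 274). *Foxe1* and *Iyd* had 0 and 1 UMIs there and *Tshr* 2.

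Cells with *Pax8* and no *Nkx2-1* or *Epcam* UMI numbered 4, 20 and 6. The 20 in the library labelled as Tbx1 neo2/neo2 held 26 *Pax8* UMIs, 40 of *Hhex*, 5 of *Iyd* and 3 of *Foxe1*. *Sla*, a signalling adaptor gene of blood cells on the opposite strand within *Tg* (chr15:66780819-66831829), stood at 16.9, 28.5 and 40.1 CPM in *Ptprc*-positive cells, where *Tg* stood at 0.0600, 0.252 and 0.560. In hemoglobin-rich cells *Sla* stood at 0.282, 0.708 and 0.586 CPM, beside 0.282, 2.26 and 2.05 CPM of *Tg*. Whether tags of *Sla* add to the *Tg* UMIs was not tested.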
